A study of Mus musculus with 54 samples.

Results

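The theca is the steroidogenic and connective tissue layer outside the basement membrane of the ovarian follicle, and its fibroblast-like cells carry collagens and the platelet-derived growth factor receptors. Among the 15 libraries of the putative unruptured follicle side without hCG, the 5 richest and the 5 poorest in transcripts of such cells were compared, which makes 10 of the 54 libraries of the series. They were chosen by measured values: each library was scored by the mean log2(TPM + 1), with TPM the length-scaled share of transcripts, of the collagen genes Col1a1 and Col3a1, the small collagen-binding proteoglycan gene Dcn, and the receptor genes Pdgfra and Pdgfrb. The 5 highest scores form the high-score libraries and the 5 lowest the low-score libraries, so every difference between these arms is a description, with no test. Tests against the score, and of the sides post-hCG, were made in libraries that the score did not sort. The test of the sides without hCG includes all 15 sorted libraries. The score reads connective tissue genes and not theca steroidogenesis, hence the names of the arms.

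The study asked how the wall of the ovulatory follicle differs between the side that ruptures and the side that does not. Follicles were isolated with enzymes from ovaries of CD-1 mice aged 14 to 16 days, grown in alginate hydrogel for 8 days, and kept for 12 h in medium that held FSH and epidermal growth factor in all groups, with or without human chorionic gonadotropin (hCG), the luteinizing hormone analogue that triggers ovulation. Each follicle was then cut into its unruptured and ruptured sides, the cumulus-oocyte complex was discarded, and each library was made from a single side by Smart-Seq2. Besides the 15 putative unruptured libraries without hCG there were 14 of the putative ruptured side without hCG, 12 of the unruptured side post-hCG and 13 of the ruptured side post-hCG. Without hCG no follicle ruptures, so the side is a prediction from shape. Enzymatic isolation strips much of the theca, which grows back in culture, and the cultured follicle has no blood supply, interstitium or immune system of the ovary around it. The sample labels give the tissue as cumulus-oocyte complex, although that complex was the part discarded.

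In the ovary, theca cells of the inner layer take up luteinizing hormone signals through Lhcgr and make androgens with Cyp17a1, which the granulosa cells inside the basement membrane turn into estrogens. The outer theca is a fibroblast and smooth muscle layer rich in fibrillar collagen, held together by lysyl oxidases and bound by small proteoglycans. Pericytes, the contractile cells that wrap small vessels, share Pdgfrb, Cd248 and actin-binding genes with it.

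The scores of the 5 high-score libraries were 6.01 (replicate 7), 5.27 (replicate 6), 5.14 (replicate 4), 4.88 (replicate 2) and 4.79 (replicate 5). Those of the low-score libraries were 4.25 (replicate 8), 4.19 (replicate 3), 3.72 (replicate 12), 3.39 (replicate 1) and 1.87 (replicate 14). The borders fall in a continuous range: the first library outside the high arm scored 4.69, just under 4.79, and the first outside the low arm scored 4.37, just over 4.25. Arm means were 5.22 ± 0.48 and 3.49 ± 0.97 (SD, n = 5 each), a gap of 1.73. Over all 15 libraries each scoring gene followed the mean of the other 4 with a Pearson r between 0.65 for Pdgfrb and 0.95 for Col3a1, given as a description because the points share depth and composition. By rank Dcn followed the others least, with a Spearman rho of 0.38 against a Pearson r of 0.69. Values per gene and library are given below in this order of replicates, 7, 6, 4, 2 and 5, then 8, 3, 12, 1 and 14.

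Col3a1 had the widest range of the 5 scoring genes in TPM, with 2209.6, 858, 732, 381 and 532 TPM in the high-score and 268, 167, 174, 134 and 11.2 TPM in the low-score libraries. Col1a1 gave 142, 41.8, 45.6, 22.5 and 54.2 TPM against 18.3, 16.1, 9.63, 5.16 and 2.25 TPM, and overlapped between the arms. Dcn gave 248, 84.0, 52.9, 80.3 and 34.8 TPM against 57.0, 46.0, 48.0, 42.7 and 5.88 TPM, also overlapping, so Dcn set the high arm apart mainly through replicate 7. The receptors were far lower: Pdgfra ran from 2.93 to 5.58 TPM in the high-score and 0.350 to 2.82 TPM in the low-score libraries. Fitted differences, high minus low, were 2.72 (Col3a1), 2.56 (Col1a1), 1.82 (Pdgfra), 1.31 (Dcn) and 1.03 (Pdgfrb) on the log2 scale, values that the choice of libraries fixed.

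Total counts ran from 1497071 to 2834734 over the 54 libraries and from 1506980 to 2657045 in the 10 compared here. Replicate 2, high-score, was the shallowest of the 10 and had the highest mitochondrial share of counts, 10.7%, against 6.18% to 6.69% in the other high-score libraries and 6.82% to 10.3% in the low-score libraries. All 5 high-score libraries came from plate row F, against 3 of 5 low-score libraries, and what a plate row shared is not given in the sources used here, so its part in the differences was not tested. Replicate 1, low-score, held oocyte transcripts: the zona pellucida genes Zp2 and Zp3 had 321 and 200 counts there, and Gdf9, the oocyte growth factor, had 164. In the other 4 low-score libraries these 3 genes had 0 counts each, and in the high-score libraries at most 23. The mean log2(TPM + 1) of the 16 oocyte genes listed was 2.89 in replicate 1 and 0.03 to 0.16 in the other low-score libraries, and 0.08 to 0.83 in the high-score libraries. Replicate 7, high-score, held keratin transcripts of the ovarian surface epithelium, with 126 counts of Krt19 and 54 of Krt7 against at most 6 of either gene in the other high-score and at most 7 in the low-score libraries. Endothelial genes were sparse, with 2 of 14 past the filter on low counts and a mean list level of 0.41 to 0.94 in the high-score and 0.24 to 0.82 in the low-score libraries. Of 15 immune genes only Lyz2, a macrophage lysozyme, passed; the list level was 0.44 to 2.22 and 0.04 to 1.13, highest in replicate 2, where the macrophage complement genes C1qa, C1qb and C1qc had 14, 30 and 12 counts. In a bulk library fewer cells of a type and less RNA per cell cannot be told apart, and the part of these cells in the differences below was not tested beyond leaving out replicates 1 and 7.

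The steroidogenic genes of the theca overlapped between the arms. Cyp17a1, the androgen-making enzyme that defines the inner theca, had 10, 13, 18, 59 and 6 counts in the high-score and 5, 1, 11, 5 and 1 in the low-score libraries, too few to pass the filter. Insl3, the theca peptide hormone, had 15.1, 30.9, 173, 32.8 and 4.88 CPM (TMM-normalised counts scaled to a common total) in the high-score libraries. In the low-score libraries it had 8.14, 35.4, 81.3, 62.5 and 3.23 CPM, so the arms overlapped over nearly their whole range. Lhcgr, the luteinizing hormone receptor, lay at 18.3, 37.9, 24.0, 360.4 and 4.88 CPM against 18.8, 8.35, 70.2, 23.6 and 17.1 CPM, and its fitted difference of 1.68 rested on replicate 2. Akr1b7, a detoxifying aldo-keto reductase, had the largest difference of the list, 2.29, and it too rested on a single library, replicate 5 at 69.1 CPM against at most 7.83 CPM in any other of the 10. Aldh1a1, a retinoic acid synthesis enzyme of the theca, leaned the other way at -0.59. Of 13 theca endocrine genes 10 passed the filter, with a median difference of 0.54 against -0.03 over all 9529 genes, and none was called. Scarb1, a receptor that brings in cholesterol for steroid synthesis, differed by 1.23 without separating. The hedgehog pathway, through which granulosa cells recruit the theca, differed little: 8 of 17 receptor and transcription factor genes passed, with a median of 0.12 and Gli1, its main target gene, under the filter. Each of the 10 endocrine genes that passed overlapped between the arms, though 9 of them had a difference above 0 and the counts of Cyp17a1 leaned the same way. Richness in theca is therefore described here for connective tissue genes alone, and whether the arms differ in endocrine theca cells is not settled.

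A gene was called when its fitted difference was at least 2-fold and its log2 CPM did not overlap between the arms. Of 9529 genes, 33 were called higher (0.346%) and 16 lower (0.168%) in the high-score libraries. Without the fold limit, 105 genes were higher and 108 lower with no overlap. A gene that passed the filter only through the arm where it was high had to differ, so these counts describe the arms and support nothing more. In TPM, the other deposited scale, the arms were also apart for 20 of the 33 and 4 of the 16 (Rnase1, Ctsl, Bbs10 and Me2). Emilin1, Nid1, Cald1, Cnn2, Pik3ip1, St3gal5, Asb4, Syt14, Tox and Bmp2 are among those that overlapped in TPM.

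Several of the genes called higher encode matrix glycoproteins or enzymes that assemble matrix. Mgp, matrix Gla protein (GRCm38 chr6:136872435-136875823), which binds calcium and keeps soft tissue free of mineral, had 70.1, 40.8, 159, 72.5 and 63.0 CPM in the high-score and 25.4, 28.6, 14.8, 33.1 and 5.07 CPM in the low-score libraries, a difference of 1.91. The highest low-score library was under the lowest high-score library, and replicate 14 was lowest. Bgn, biglycan (chrX:73483602-73495933), a small proteoglycan that binds collagen fibrils, had 385, 250.3, 273, 194 and 296 CPM against 119, 141, 77.6, 81.5 and 37.3 CPM, means of 279.8 ± 69.9 and 91.4 ± 40.2 (SD, n = 5 each), and differed by 1.61. All of its high-score libraries were above all of its low-score libraries in TPM as well. Col6a1, an alpha chain of the beaded collagen VI that anchors cells to matrix, had 418, 136, 179, 141 and 128 CPM against 101, 52.9, 84.6, 43.4 and 27.2 CPM and differed by 1.70. Replicate 7 stood far above the other 4 high-score libraries, which lay close together. Emilin1, a glycoprotein of elastic fibres, had 112, 49.1, 87.3, 36.0 and 64.6 CPM against 29.0, 31.8, 30.0, 14.1 and 13.8 CPM and differed by 1.56. Its closest pair, 36.0 and 31.8 CPM, nearly touched. Loxl1, a lysyl oxidase that crosslinks elastin, had 37.1, 21.0, 23.5, 12.4 and 17.5 CPM against 7.13, 10.3, 4.62, 1.24 and 2.31 CPM and differed by 2.11. Cpxm1, a secreted carboxypeptidase family member, had 464, 731, 669.8, 338 and 339 CPM against 186, 102, 328, 189 and 8.76 CPM. That difference of 1.64 included replicate 12 at 328 CPM, close to the lowest high-score library at 338 CPM, and replicate 14 at 8.76 CPM.

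Among other genes called higher, Cd248, endosialin (chr19:5068078-5070682), a surface glycoprotein of pericytes and activated fibroblasts, had 45.8, 47.4, 35.1, 21.5 and 25.2 CPM in the high-score and 13.2, 15.1, 5.08, 4.14 and 1.38 CPM in the low-score libraries. Its difference was 2.16, and all 5 high-score libraries were above 21 CPM and all low-score libraries under 16 CPM. Hic1, a zinc finger repressor of mesenchymal progenitors, had 19.2, 9.07, 12.0, 9.67 and 8.54 CPM against 5.09, 7.56, 2.31, 1.24 and 0 CPM, a difference of 1.82. Cald1, caldesmon, which binds actin in smooth muscle, had 115, 78.3, 82.1, 83.2 and 95.9 CPM against 39.2, 62.5, 50.4, 44.7 and 18.4 CPM, a difference of 1.08, and Cnn2, the actin-binding calponin 2, differed by 1.07. Gas7, an actin-organising protein, differed by 1.45. It was at most 86.5 CPM in the low-score and at least 89.9 CPM in the high-score libraries, so its arms hardly parted.

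Genes of the basement membrane, the sheet between granulosa and theca, were also called. Nid1, nidogen, which links laminin to collagen IV, had 134, 95.7, 81.7, 89.2 and 100 CPM against 70.7, 45.8, 47.6, 26.9 and 16.1 CPM, a difference of 1.28. Col4a2, a collagen IV chain, had 575, 589, 642, 475 and 634 CPM against 381, 299, 399, 193 and 98.2 CPM, a difference of 1.09. Other genes called higher were Adcy7, Tns2, Sdf2l1, Isyna1, Olfml3, Fblim1, Lhfp, Tbx3, Sparcl1, Ehbp1l1, Ctsk, Mospd3, Rhoj, Dusp5, Igfbp7, Cenpm, Cped1, Col5a2 and Steap3, with differences from 1.06 (Steap3) to 2.22 (Adcy7). Among them Isyna1, the enzyme that starts inositol synthesis, had by far the most counts, 2216, 2354, 2168, 2839.5 and 2665 CPM against 758, 1112, 1424, 1252 and 239 CPM.

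**Figure D1:**
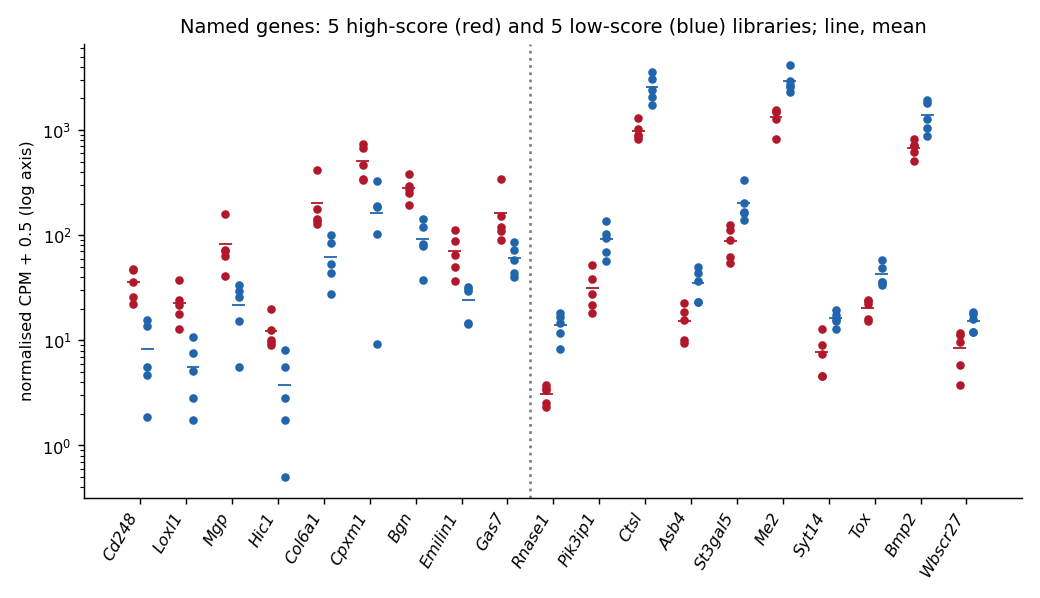
Normalised CPM plus 0.5, on a log axis, of 9 of the 10 genes chosen as higher (left of the dotted line) and the 10 chosen as lower (right) in each of 5 high-score (red) and 5 low-score (blue) libraries, with the arm mean as a line. By the rule that chose them no gene overlaps; Syt14, Asb4, Cpxm1, Wbscr27 and Gas7 leave the narrowest gaps, and the lowest low-score point of Cpxm1 and Hic1 is replicate 14.

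The 16 genes called lower held no matrix gene. Rnase1 (chr14:51144998-51146785), a secreted ribonuclease, had 1.83, 2.89, 2.99, 3.22 and 2.03 CPM in the high-score and 14.3, 11.1, 7.85, 17.8 and 16.1 CPM in the low-score libraries, a difference of -2.36. It is a low-count gene, and the 5 high-score libraries rest on 29 counts in all. Ctsl, cathepsin L (chr13:64359337-64370890), a lysosomal protease, had 1289, 904, 828, 1023 and 885 CPM against 3036, 1744, 2416, 2069 and 3577 CPM, a difference of -1.38. Bmp2, a bone morphogenetic protein, had 726, 815, 618, 707 and 511 CPM against 1828, 1036, 881, 1265 and 1925 CPM, a difference of -1.04. Ctsl and Bmp2 were highest in replicates 14 and 8. Me2, the mitochondrial malic enzyme, had 1539.9, 1509, 1491, 1268 and 819.6 CPM against 2658, 2555, 2914, 2315 and 4195 CPM, a difference of -1.14, and St3gal5, which makes the ganglioside GM3, differed by -1.20. Pik3ip1, a membrane inhibitor of PI3 kinase, Asb4, a ubiquitin ligase adaptor, Syt14, a synaptotagmin, and Tox, a nuclear HMG-box factor, differed by -1.57, -1.23, -1.14 and -1.09. Wbscr27 did not overlap but was under 2-fold, at -0.90. The clone-named gene RP24-294K15.7, singled out after its values were seen, had 48.6% of its counts over the 15 libraries in replicate 1, the library with oocyte transcripts, and its difference went from -1.95 to -0.55 without it.

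Without replicate 1, 46 genes were called higher and 36 lower, and 29 of the 33 and 12 of the 16 were among them. Without both replicates 1 and 7, a comparison added after the data were seen, the counts were 50 and 41, with 26 of the 33 and 13 of the 16 among them. The genes that dropped out of the 33 in that comparison stayed separate and fell just under 2-fold, between 0.84 and 1.00. Leaving out 1 library makes separation easier by construction: without replicate 2 the counts were 85 and 56, without replicate 12 they were 58 and 28, and without replicate 8 they were 66 and 19. Without replicate 5 they were 52 and 21, and without replicate 3 they were 45 and 28. Replicate 14, the poorest, had the opposite effect, with 24 and 11 genes called without it. Only 22 of the 33 and 9 of the 16 were among them.

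Promoters are shown for 3 of the genes called higher or lower and for the scoring gene Col3a1, since these genes moved together or against each other. The stretches are the 250 bases before the RefSeq transcription start in GRCm38.p6, 5′ to 3′ on the strand of the gene, and capitals mark matches on either strand to the letters of the TATA box (TATAAA), of the CCAAT box, of the GC box (GGGCGG) and of the AP-1 motif (TGANTCA).
Col3a1, chr1:45311288-45311537, plus strand: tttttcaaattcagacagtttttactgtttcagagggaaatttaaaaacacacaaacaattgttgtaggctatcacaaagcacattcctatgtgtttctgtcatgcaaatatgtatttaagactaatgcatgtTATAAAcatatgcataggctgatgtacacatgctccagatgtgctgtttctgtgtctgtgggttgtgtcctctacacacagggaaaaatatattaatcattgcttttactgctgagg
Bgn, chrX:73483351-73483600, plus strand: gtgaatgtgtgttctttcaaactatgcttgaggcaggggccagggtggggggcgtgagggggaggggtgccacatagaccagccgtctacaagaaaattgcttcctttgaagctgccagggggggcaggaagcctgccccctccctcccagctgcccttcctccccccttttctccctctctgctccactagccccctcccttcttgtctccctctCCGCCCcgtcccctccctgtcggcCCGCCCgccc
Cpxm1, chr2:130397630-130397879, minus strand: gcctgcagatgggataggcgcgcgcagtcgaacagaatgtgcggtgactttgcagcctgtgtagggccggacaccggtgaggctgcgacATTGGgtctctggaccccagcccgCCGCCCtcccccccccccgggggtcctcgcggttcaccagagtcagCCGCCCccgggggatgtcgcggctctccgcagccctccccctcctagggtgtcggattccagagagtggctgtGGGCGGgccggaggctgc
Rnase1, chr14:51146768-51147017, minus strand: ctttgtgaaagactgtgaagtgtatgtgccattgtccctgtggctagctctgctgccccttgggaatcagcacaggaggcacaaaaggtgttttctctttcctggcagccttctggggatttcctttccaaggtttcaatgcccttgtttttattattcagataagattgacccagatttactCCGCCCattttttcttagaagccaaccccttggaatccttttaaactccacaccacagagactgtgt

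Promoters of 25 of the 33 genes called higher and 10 of the 16 called lower were in the RefSeq table. GGGCGG, the GC box letters, lay in 17 of the 25 (68.0%) and 7 of the 10 (70.0%), against 35.4% of all 27025 genes with a promoter listed. CCAAT was found in 13 (52.0%) and 4 (40.0%), against 37.5%. TGANTCA, the letters of the AP-1 motif, was in 4 (16.0%) and 0, against 7.82%, and TATAAA in 1 (4.0%) and 0, against 14.3%. Both directions had close shares of GGGCGG, and the table of all genes includes many that are not expressed in these follicles, so nothing particular to either set can be read from these matches.

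Whole gene lists showed how far beyond the named genes the difference reached. Of 35 interstitial matrix genes 25 passed the filter, 24 of them had a difference above 0, the median was 1.01 and 5 were called (Bgn, Col5a2, Col6a1, Loxl1 and Mgp). Col1a2, the partner chain of Col1a1, had the largest difference at 2.23 and overlapped. Smooth muscle and pericyte genes were above 0 for all 9 of 19 that passed, with a median of 0.93, from 0.55 for Abcc9 to 1.93 for Kcnj8. The defining contractile genes Myh11, Cnn1, Des and Actg2 did not pass, and Acta2, smooth muscle actin, differed by 0.67. Of 16 basement membrane genes 15 passed, 14 were above 0 and the median was 0.67. Matrix proteases and their inhibitors had a median of 0.59 over 18 of 25, led by Mmp2, gelatinase A, at 2.26, which overlapped: 100.4, 31.3, 34.6, 11.8 and 24.0 CPM against 11.7, 10.3, 3.70, 13.6 and 2.31 CPM. Complement, acute phase and chemokine genes had a median of 0.78 over 13 of 19, and Saa3, serum amyloid A3, had 595, 21.4, 21.4, 37.1 and 55.7 CPM against 21.4, 8.75, 9.24, 22.7 and 1.38 CPM. Saa3 and C3, the central complement protein, were far higher in replicate 7, the library with keratin transcripts, than in the other 9, and the list's median was 0.18 without replicate 7.

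Granulosa cell genes leaned down, with a median of -0.36 over 13 of 17, 9 below 0 and 0 called. Inha, the inhibin alpha subunit, had 1990.4, 4232, 4805, 7409.5 and 1629.5 CPM against 10241, 4331, 9287, 5573 and 13551 CPM and a difference of -1.10, and Esr2, estrogen receptor beta, had 22, 13.2, 21.8, 95.6 and 19.5 CPM against 99.8, 47.3, 86.9, 77.8 and 177 CPM and a difference of -1.53. For Esr2 only replicate 2 of the high-score libraries reached into the low-score range, and for Inha replicates 2 and 4 did. Cyp19a1, aromatase, and Inhba, the activin subunit, had differences of 0.17 and 0.00. Lists that hold no matrix genes also leaned up: all 21 cholesterol synthesis genes passed, 20 were above 0 and the median was 0.69, led by Hmgcs1 at 1.15. All 12 of 23 cell cycle genes that passed were above 0, with a median of 0.68. Cumulus expansion genes had the largest median of any list apart from the scoring genes, 1.31 over 5 of 9. All 5 overlapped between the arms and 0 were called. The mean level of that list was 1.31 to 2.38 in the high-score and 0.99 to 1.57 in the low-score libraries. Immediate early genes had a median of 0.65 over 10 of 12, with 0 called. The hedgehog ligands did not pass, and the surface epithelium, oocyte, amino acid transport, Wnt and growth factor lists had medians of 0.05, -0.15, 0.25, 0.27 and 0.14.

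**Figure D2:**
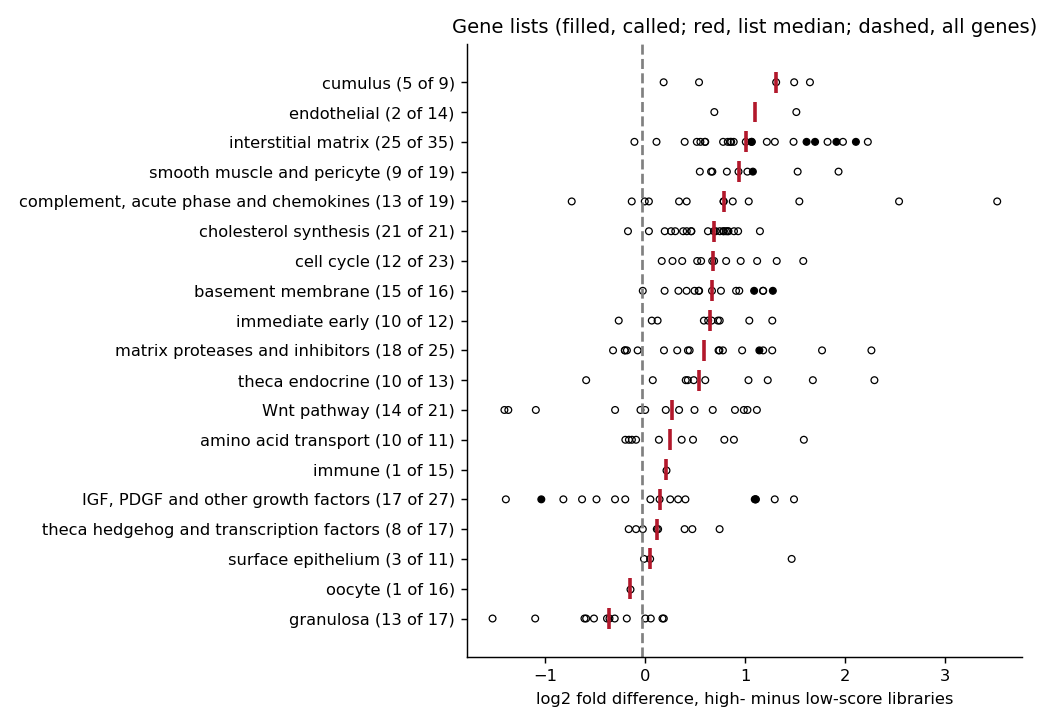
Fitted log2 difference, high- minus low-score libraries, of each gene that passed the filter, by gene list with the number that passed of the number listed. Filled points were called, the red bar is the list median and the dashed line the median of all genes (-0.03); the interstitial matrix median is 1.01 and the granulosa median -0.36, and the cholesterol synthesis and cell cycle lists lie almost wholly to the right of 0.

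The same score could be computed in the 39 libraries that were not used to form the arms. The unruptured side post-hCG spanned 2.13 to 5.09, around a median of 3.64. Without hCG the putative ruptured side spanned 0.23 to 4.63, around a median of 2.06. After hCG the ruptured side spanned only 0.28 to 2.33, around a median of 0.61. Of the 14 putative ruptured libraries, 8 scored above the lowest of the low-score libraries and 1 above the highest of them. On the ruptured side post-hCG 11 of 13 scored under 0.87, so that group offered almost no range.

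**Figure D3:**
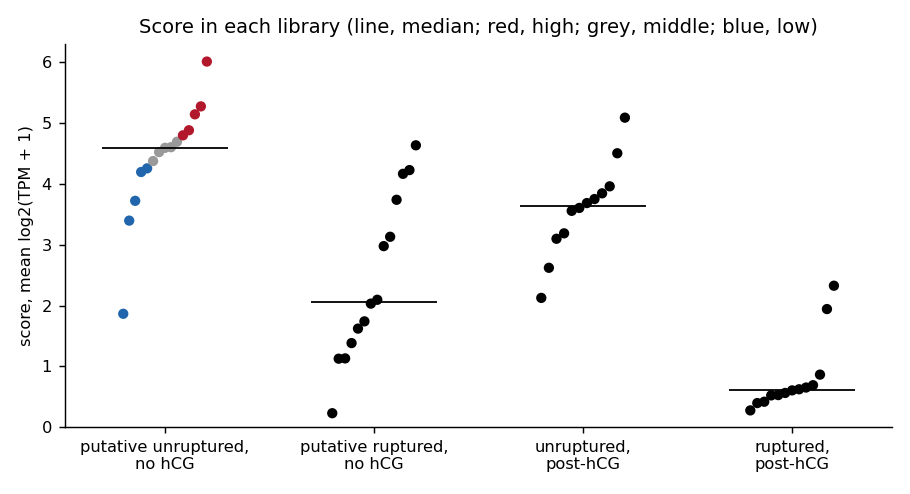
Score, the mean log2(TPM + 1) of the 5 scoring genes, of every library in the 4 groups, with the group median as a line; red, grey and blue points are the high-score, middle and low-score libraries. The putative ruptured side covers 0.23 to 4.63, and the ruptured side post-hCG has only 2 libraries above 0.87.

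Whether the genes called in the arms follow the score elsewhere was tested by the slope of each gene on the score within each other group (edgeR quasi-likelihood test, Benjamini-Hochberg over all genes, FDR under 0.05; slopes in log2 per unit of score). On the putative ruptured side without hCG 161 of 9232 genes rose with the score (1.74%) and 48 fell (0.52%). Of the 33 genes called higher 28 were tested there, 21 rose and none fell (0 falls also by DESeq2 and limma, and 0 at an unadjusted p under 0.05), with a median slope of 0.86 against 0.00 over all genes. Mgp had a slope of 2.20 ± 0.18 (SE, n = 14, adjusted p = 2.18e-07), Bgn 1.95 ± 0.11 (adjusted p = 3.25e-09) and Emilin1 1.63 ± 0.08 (adjusted p = 9.95e-10). Cd248 rose by 1.53 ± 0.14, Cpxm1 by 1.19 ± 0.12, Sparcl1, a matricellular glycoprotein, by 1.64 ± 0.12 and Nid1 by 0.96 ± 0.06, with adjusted p of at most 2.70e-06. Loxl1 had a slope of 0.47 ± 0.16 that did not pass (adjusted p = 0.14), nor did those of Tns2, Sdf2l1, Isyna1, Mospd3, Cenpm and Steap3, which ran from -0.16 to 0.60. Replicate 12 of that group, with a score of 4.16, also held oocyte transcripts (list level 1.21, against at most 0.32 in the other 13); without it 157 genes rose and 113 fell, and 19 of the 25 genes still tested rose. DESeq2 called 24 of 33 tested, and limma on log2(TPM + 1) 16 of 25.

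None of the genes called lower passed the slope test. On the putative ruptured side 15 were tested and 0 fell by edgeR, DESeq2 or limma, with 1 falling and 1 rising at an unadjusted p under 0.05 and a median slope of 0.04. Rnase1 had a slope of 0.25 ± 0.16 (adjusted p = 0.49), opposite in sign to its difference between the arms, Ctsl -0.11 ± 0.09 (adjusted p = 0.582) and Bmp2 -0.00 ± 0.13 (adjusted p = 0.998). In simulated data with a slope of 0.5 on the log2 scale, the test in these 14 libraries found 98.5% of 200 changed genes. Every simulated gene had the same spread between libraries, so a slope of that size could be missed in a gene of wider spread.

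**Figure D4:**
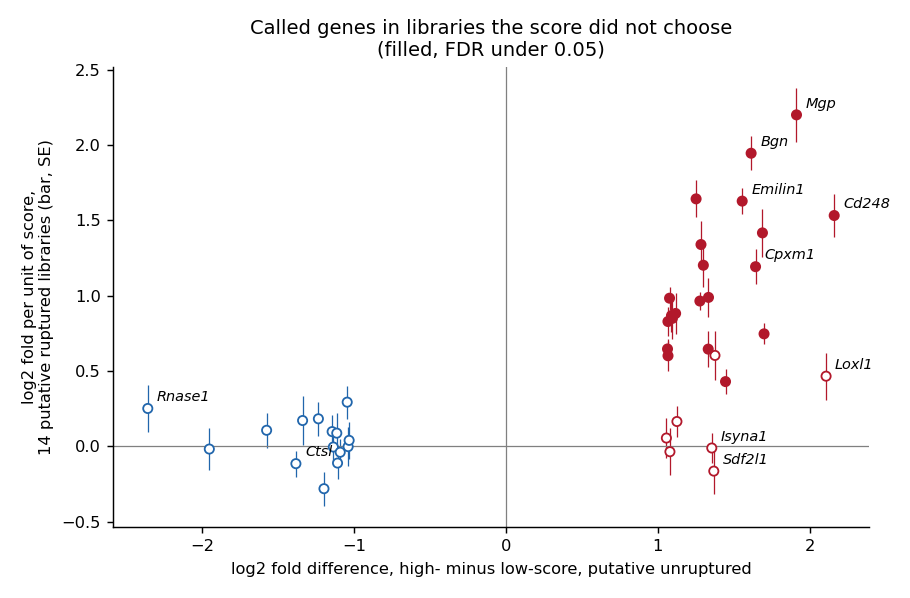
Called genes tested in the 14 putative ruptured libraries: horizontal, the fitted log2 difference between the arms, which chose the genes; vertical, the slope on the score with its SE in libraries that did not form the arms. Filled points pass an FDR under 0.05; 21 of the 28 genes called higher are filled and lie above 0, and the 15 called lower scatter about 0 with none filled.

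On the unruptured side post-hCG 27 of 9508 genes rose with the score (0.284%) and none fell (0.0%; edgeR, with 543 genes in either direction at an unadjusted p under 0.05, and 2 falls by DESeq2 and 0 by limma). Of the 33 genes 32 were tested and 9 rose, among them Loxl1, Col6a1, Bgn, Emilin1, Lhfp, Nid1, Sparcl1 and Cald1. Emilin1 had a slope of 0.94 ± 0.10 (n = 12, adjusted p = 8.82e-05), Bgn 1.18 ± 0.17 (adjusted p = 0.001) and Loxl1 1.09 ± 0.20 (adjusted p = 0.0162). The median slope of the 32 was 0.54 against -0.01 over all genes, and 30 were above 0. Mgp and Cd248 had slopes of 0.98 ± 0.27 and 1.05 ± 0.22 that did not pass (adjusted p = 0.176 and 0.0557). Without the libraries of highest and lowest score, replicates 4 and 8, only 4 genes rose and 2 of the 33 were among them, so most calls in this group rest on those libraries. Of the genes called lower 9 were tested and 0 passed by edgeR, DESeq2 or limma, with 0 at an unadjusted p under 0.05.

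On the ruptured side post-hCG 3 of 9643 genes rose (0.0311%) and none fell (0.0%; edgeR, with 533 genes in either direction at an unadjusted p under 0.05, and 0 falls by DESeq2 and limma). Of the 33 genes 25 were tested and 0 passed by edgeR, DESeq2 or limma, with 6 rising at an unadjusted p under 0.05. Without replicates 4 and 13, which alone scored above 0.87, no gene passed (edgeR, with 643 at an unadjusted p under 0.05). The simulated slope of 0.5 was found for 13.5% of genes in these 13 libraries, 35.5% in the 12 of the unruptured side and, as given above, 98.5% in the 14 putative ruptured libraries.

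The lists were also looked up against the score. On the putative ruptured side 17 of 25 interstitial matrix genes rose with the score and none fell (edgeR; 0 falls by DESeq2 and limma and 0 at an unadjusted p under 0.05), with a median slope of 0.57, and Col1a2 had 1.95 ± 0.12 (n = 14, adjusted p = 5.50e-09). Smooth muscle and pericyte genes rose for 5 of 7, among them Acta2 with 1.33 ± 0.13 (adjusted p = 2.63e-06), and basement membrane genes for 9 of 15, with Col4a1 at 1.17 ± 0.12 (adjusted p = 3.31e-06). Complement and acute phase genes rose for 5 of 9, Saa3 with 1.67 ± 0.27 (adjusted p = 9.61e-04). Among theca endocrine genes Insl3 rose by 1.88 ± 0.42 (adjusted p = 0.0185) and Star, which carries cholesterol into mitochondria, by 1.05 ± 0.21 (adjusted p = 0.00799), while Hsd3b1 fell by 0.42 on the log2 scale (adjusted p = 0.047). Markers of other cell types rose there too: Eng, an endothelial receptor and the only endothelial gene tested, by 1.63 ± 0.24 (adjusted p = 2.62e-04), and Lyz2, the only immune gene tested, by 1.61 ± 0.37 (adjusted p = 0.0219), of which DESeq2 called Eng and limma neither. Their part in these slopes was not tested. On the unruptured side post-hCG fewer genes passed: 5 of 25 interstitial matrix, 1 of 6 smooth muscle and pericyte and 2 of 15 basement membrane genes rose, with median slopes of 0.47, 0.59 and 0.20. None of 11 complement and acute phase genes passed there (edgeR, DESeq2 and limma; 6 rising at an unadjusted p under 0.05). On the ruptured side post-hCG 1 of 18 interstitial matrix genes rose. None of 4 smooth muscle and pericyte, 13 basement membrane and 4 complement genes passed in that group (edgeR, DESeq2 and limma; 1 of each list rising at an unadjusted p under 0.05, and 1 basement membrane gene falling). Whether slopes differ between the groups was not tested.

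Cholesterol synthesis and cell cycle genes, which leaned up in the high-score libraries, had no member that rose with the score on the putative ruptured side. There 0 of 21 cholesterol synthesis genes rose and 2 fell (edgeR; 0 rises and 11 falls at an unadjusted p under 0.05, 0 rises by DESeq2 and limma), Msmo1 and Fdft1, both enzymes of sterol synthesis, with slopes of -0.41 ± 0.09 and -0.33 ± 0.08 (adjusted p = 0.0161 and 0.027). The median slope was -0.20 there, 0.07 on the unruptured side post-hCG and -0.33 on the ruptured side post-hCG. Of 22 cell cycle genes none passed on the putative ruptured side (edgeR, DESeq2 and limma; 0 rising and 8 falling at an unadjusted p under 0.05), with a median of -0.23. Cumulus genes had a median slope of -0.03 and immediate early genes -0.01, with 0 of 7 and 0 of 10 passing in any of the 3 tools and 1 and 2 at an unadjusted p under 0.05. Granulosa genes had a median of -0.28 over 15, with 0 passing in any of the 3 tools and 7 falling at an unadjusted p under 0.05.

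The genes called higher were then looked up in the difference between the labelled sides, given as unruptured minus ruptured. Post-hCG, in libraries that did not form the arms, 966 of 8580 genes had more transcript on the unruptured side (11.3%) and 862 had less (10%). The split moved with the scaling: it was 1825 against 397 when only library totals were used, and 2162 against 214 in the limma fit. Of the 33 genes 25 were tested and 16 were higher on the unruptured side, with none higher on the ruptured side (edgeR, DESeq2 and limma, and 0 at an unadjusted p under 0.05). With the score as a covariate none of the 25 passed, nor did any other gene. That fit was run in edgeR only, with 525 of all genes at an unadjusted p under 0.05. Post-hCG the score ran from 2.13 to 5.09 on the unruptured and from 0.28 to 2.33 on the ruptured side. It thus nearly coincided with the side, and the fit could hardly part the 2, so nothing is read from the loss of calls. Bgn differed by 4.01 ± 0.48 (n = 12 and 13, adjusted p = 3.59e-07), Emilin1 by 3.16 ± 0.34 (adjusted p = 6.25e-08) and Lhfp by 2.78 ± 0.33 (adjusted p = 3.59e-07). The unruptured libraries held 3.58 to 80.1 TPM of Bgn, median 20.6, and the ruptured libraries 0 to 6.58 TPM, median 0.640, so the groups overlapped at their edges. Col6a1 and Gas7 had differences of 0.47 ± 0.18 and 0.07 ± 0.18 that did not pass (adjusted p = 0.0663 and 0.841).

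In follicles without hCG, 808 of 9058 genes had more transcript in the putative unruptured libraries (8.92%) and 801 had less (8.84%). This comparison uses the same 15 unruptured libraries whatever their score, and the 14 putative ruptured libraries of the slope above. The genes called between the arms were thus picked from libraries inside this test. Of the 33 genes 28 were tested and 21 were higher on the unruptured side, with a median difference of 1.26. With the score as a covariate none of the 28 passed, and 210 of all genes still did. That fit was run in edgeR only, with 1328 of all genes at an unadjusted p under 0.05. The score differed between these sides too, with medians of 4.59 and 2.06, so the fit could not fully part side from score. Sdf2l1, with the lowest difference, stood at -0.65. Cpxm1 differed by 2.44 ± 0.51 (n = 15 and 14, adjusted p = 9.05e-04) and Mgp by 2.13 ± 0.60 (adjusted p = 0.0117). Emilin1 and Loxl1 had differences of 1.24 ± 0.47 and 0.90 ± 0.38 that did not pass (adjusted p = 0.064 and 0.0981). Of the 16 genes called lower 15 were tested. Asb4 was higher on the unruptured side by 0.82 ± 0.26 (adjusted p = 0.0222) and St3gal5 on the ruptured side, at -1.03 ± 0.26 (adjusted p = 0.00562). Post-hCG 6 of the 16 were tested, and St3gal5 was again higher on the ruptured side. Me2 and Bmp2 were higher on the unruptured side post-hCG, by 1.05 ± 0.18 and 1.47 ± 0.33 (adjusted p = 8.03e-05 and 0.00119), the reverse of their standing among the high-score libraries. Nothing in the labels says which libraries came from the same follicle or mouse, so these p-values measure the spread between single follicle sides.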

How the data were processed

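Bulk Smart-Seq2 libraries of single follicle sides were analysed from the 2 deposited tables, each of 25149 genes in 54 libraries. Per the study's methods, the authors used HISAT2 and GRCm38 for mapping, within a public Terra workflow, and batch-corrected the counts with ComBat-seq. The counting program, the annotation and the batches are not given in the sources used here, nor is whether the tables precede the correction. The submitters' processing notes also name Seurat 4. The deposited counts are estimated counts, 72.2% of nonzero values being whole, and were rounded. The deposited TPM values, computed by the authors, sum to between 585982 and 678417 per library. Smart-Seq2 has no molecular identifiers.

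Members, gene lists and tests were chosen with earlier results of these data known. Genes were filtered with filterByExpr (minimum count 10, minimum total 15) and normalised with TMM in edgeR 4.0.16 (R 4.3.3). The arms were fitted for fold only. Slopes on the centred score and side differences were tested by quasi-likelihood in edgeR, adjusted over all genes (Benjamini-Hochberg) with an FDR limit of 0.05; the 5 scoring genes were left out of counts. Log2 CPM for overlap used a prior count of 2. DESeq2 1.42.0 and limma 3.58.1 on log2(TPM + 1) were alternatives, beside other size factors, no filter, other scores and arms, and left-out libraries. The slope and side tests were tested on simulated data with 200 changed genes and the same spread for every gene of a comparison. Genes named were the scoring genes, list members past the filter, and the 10 genes in each direction with the largest difference, no overlap, at least 10 CPM and a count in every library of the higher arm, clone-named genes apart; other called genes are named because the text counts them. Some genes that enter these counts are not reported here by name. Positions are GENCODE M21 gene spans (GRCm38). Libraries in the same group are separate follicle sides, and no pair of the 15 putative unruptured libraries without hCG differed by less than sampling noise.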

Additional observations from a re-analysis of the deposited data

Results flagged for a closer look

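In each arm of 5 libraries a library was singled out where its gap to the nearest other, divided by the range of the arm, passed Dixon's limit of 0.71. Of 98 sets of 5 values 12 did. Chance alone gives about 1 in 20 for random draws, but these arms were sorted by score and the sets share libraries. That rate is therefore no benchmark for the 12. Among the high-score libraries, replicate 2 had the fewest total counts (1506980), the highest mitochondrial share (10.7%) and the highest mean level of smooth muscle and pericyte genes (2.04, as mean log2(TPM + 1)). Replicate 7 had the highest mean level of surface epithelium genes (1.85) and of complement, acute phase and chemokine genes (3.86).

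Among the low-score libraries, replicate 14 was lowest in the collagen gene Col3a1 (3.60 as log2(TPM + 1)) and in Dcn (2.78). It was also lowest in the mean level of smooth muscle and pericyte genes (0.955), of complement, acute phase and chemokine genes (1.89) and of matrix proteases and inhibitors (1.97). Replicate 1 had the highest mean level of oocyte genes (2.89, against 0.161 in the nearest other) and of cell cycle genes (1.74). Col3a1 and Dcn belong to the score that sorted the libraries.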

How the results depend on the processing

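The genes called between the arms (49 in all, 33 higher and 16 lower) depended on the choice of arms. No filter gave 101 (67 higher and 34 lower). With 4 libraries an arm there were 115 (93 higher), with 7 an arm 6 (4 and 2, of which 4 of the 33 and 0 of the 16). A score without Col3a1 gave 20 (16 and 4), with only 8 of the 33 and 2 of the 16 among them; without Dcn, or with scaled genes, it gave 26 (17 and 9), with 13 of the 33 and 6 of the 16. Library totals and a score from CPM each gave 10 lower. Leaving out each library gave 35 to 141 in all, 24 to 85 higher and 11 to 56 lower; leaving out replicates 1 and 7, chosen after the data were seen, gave 91 (50 and 41). Genes passing the slope test on the unruptured side post-hCG (27) became 47 with no filter, 49 with DESeq2, 8 with limma and 4 without the 2 libraries farthest from the median score. On the putative ruptured side (209) they became 387, 375, 97 and 112; leaving out the library with oocyte transcripts, also chosen after seeing the data, gave 270. On the ruptured side post-hCG (3) they became 14 with no filter, 1 with limma and 0 without the 2 libraries. The side difference without hCG (1609) became 210 with the score as a covariate, where none of the 28 genes called higher that were tested passed, and 1049 with limma. The side difference post-hCG (1828) became 0 with that covariate (edgeR, with 525 at an unadjusted p under 0.05). DESeq2 and limma were not run with it, and the score nearly coincided with the side there, so that fit could hardly part them. With library totals the split of the side difference post-hCG was 1825 higher and 397 lower on the unruptured side, and with limma 2162 and 214. The cause was not tested. Signs were checked for the arm differences of the scoring genes and the 10 genes chosen in each direction, for list medians, and for slopes of called genes. None of these changed sign past its limit under the alternatives run for it. The side differences of single genes, and the arm differences of other list genes, were not checked for sign. With the replicate block the sides gave 1738 genes post-hCG (930 and 808) and 1410 without hCG (704 and 706). Same-numbered libraries had a median correlation of -0.04 over 12 pairs and -0.11 over 14, and 2 in each correlated best with their own number. Single pairs ran from -0.27 to 0.31 post-hCG and from -0.28 to 0.46 without hCG. Whether any pair came from the same follicle is not settled by these values. The ruptured side post-hCG, with little range of score, limits what its slope can show.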

Other observations

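Growth factor and Wnt genes, apart from the matrix lists, held a few members that followed the score on the putative ruptured side without hCG. Over all genes 161 of 9232 rose there (1.74%; edgeR, FDR under 0.05). Of 15 growth factor genes tested 4 rose, the insulin-like growth factor binding proteins Igfbp4, Igfbp6 and Igfbp7 and the receptor gene Tgfbr2. Igfbp7 is also among the 33 genes called higher between the arms. DESeq2, run without the filter on low counts, called 5 of this list as rising and limma 4. Of 12 Wnt pathway genes 2 rose, the ligand gene Wnt5a and the secreted regulator Dkk3, with 4 rising by DESeq2 and 0 by limma. Of 7 hedgehog and theca transcription factor genes 1 rose, Nr2f2, a nuclear receptor of stromal cells. In that list 6 rose by DESeq2 and 0 by limma, so its count depended on the tool. Of 15 protease and inhibitor genes 3 rose, Mmp2, Serpinf1 and Timp3, and 1 fell, Mmp23, where 48 of all 9232 genes fell (0.52%). By DESeq2 5 rose and 1 fell, and by limma 3 rose and 1 fell.

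Surface epithelium and oocyte transcripts also appeared in replicate 10, a library between the arms, with 29 counts of Krt19, 59 of Krt7 and 19 of Zp2. On the unruptured side post-hCG, replicate 4 held 48 counts of Krt7 and 15 of Zp2.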
